A study of Homo sapiens with 6 samples.

Results

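The genes described here belong to the machinery that sorts membrane proteins into multivesicular endosomes and releases the vesicles as exosomes. The list holds 45 genes: the ESCRT complexes with the VPS4 ATPases, the ALIX, syntenin and syndecan route, 6 tetraspanins, the flotillins, ARF6 with lipid enzymes, and proteins of vesicle docking and fusion. It was drawn up by gene function, with earlier results of these data known. A gene was taken as measured where at least 1 probe set (a group of array probes summarised as 1 value) carried its symbol alone. This held for 42 of the 45 genes, out of 18132 genes measured in this way. CHMP3 shared its probe sets with the readthrough gene RNF103-CHMP3, and CHMP3, VTA1 and PDCD6IP (ALIX) were not analysed here.

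RNA came from TE-1, an established human cell line from an oesophageal squamous cell carcinoma, and was hybridised to 6 Affymetrix arrays. Of these, 3 held a clone of TE-1 with a stable knockdown of EIF3C, a subunit of the translation initiation factor eIF3, and 3 held the parental TE-1 cells as control. All 3 knockdown samples share that clone, and the labels describe neither the knockdown construct nor parental cells with a control construct. Differences between a clone and its parental line that do not come from the knockdown cannot be told apart from it. The labels call the samples biological replicates without saying whether they were separate cultures, so the p-values reflect the spread among these 6 samples alone, and part or all of it may be technical.

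The target was checked on 5 probe sets that EIF3C shares with its near-identical copy EIF3CL, and all 5 were lower in knockdown. The brightest of them read 10.69, 10.60 and 10.56 on the control arrays and 8.42, 8.41 and 8.49 on the knockdown arrays. Signal in knockdown was thus 22.1% of control (limma, adjusted p = 6.58e-15, corrected over all human probe sets by the Benjamini-Hochberg method). Of 10 markers of squamous epithelium, 7 were analysed. SFN, PERP and DSG3 stood at 10.96, 9.98 and 8.14 in control, while KRT5, KRT14 and SOX2 stood between 5.77 and 5.91, below the median of 6.70 over all measured genes. The summed signal of the 7 markers was 11.76 to 11.82 in control and 11.69 to 11.71 in knockdown on the log2 scale, and 4 of them were called, DSG3, PERP and SOX2 lower and S100A2 higher. Of the 8 leukocyte and 6 endothelial markers, none exceeded 6.54 as a mean over the arrays. The summed fibroblast markers were 9.24 to 9.30 in control and 7.97 to 8.09 in knockdown, a level carried by COL1A2, and the part of this change in the results was not tested. Of the other 7 fibroblast markers, COL1A1 fell by 0.21, PDGFRB differed by 0.13 and was not called, and COL3A1, DCN, LUM, PDGFRA and THY1 were below the filter for low signals. In bulk RNA, fewer cells of a type and less RNA per cell cannot be told apart.

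Multivesicular endosomes form when ESCRT complexes gather ubiquitinated membrane proteins, bend the membrane inward and cut the neck of the bud, after which VPS4 takes the ESCRT-III filament apart. Syntenin, bound to syndecans and to ALIX, feeds the same machinery without ubiquitin, and ceramide made by sphingomyelinases can drive budding on its own. The vesicles are released as exosomes, rich in the tetraspanins CD9, CD63 and CD81, when the endosome docks at the plasma membrane and fuses with it through SNARE proteins. Other endosomes of the same kind fuse with lysosomes instead, and ESCRT-III also closes the nuclear envelope and completes cell division.

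Transcripts of this machinery changed in both directions in EIF3C knockdown cells, mostly by less than 2-fold. SDC4, VPS25 and CHMP1B fell most and VAMP7, CHMP2B and CHMP7 rose most. Of the 42 measured genes, 41 passed the filter on low signals and were tested, and 36 were called at an adjusted p of 0.05, 15 higher and 21 lower. That is 87.8% of those tested, where 66.5% of all 13599 genes tested were called, 32.4% higher and 34.1% lower. Brighter genes were called more often: 40 of the 41 lay above the median level of all measured genes, where 79.6% of genes were called. The groups did not overlap for 37 of the 41 genes, or 90.2%, against 70.3% of all genes and 7442 of the 9066 genes above that median level. Differences of at least 0.5 on the log2 scale were called for 14 of them, or 34.1%, against 21.8% of all genes. The share at this size was not computed for the genes above the median level, so this comparison is not matched for brightness. Differences of at least 2-fold were called for 2 of the 41, SDC4 and VAMP7, a share close to the 4.82% of all genes. Tested instead against a change of 1.2-fold (limma's treat), 8 were called higher and 10 lower, and the calls of HGS, both STAM genes, TSG101, VPS37B, VPS37C, SNF8, CHMP5, SDCBP, CD9, CD63, CD81, both flotillins, ARF6, SMPD2, YKT6 and EXPH5 were lost. The median change was -0.10 on the log2 scale over the 41 genes, -0.03 over all genes tested and 0.005 over the genes above the median level. In the same order, the median size of the change was 0.28, 0.23 and 0.28. Each gene was represented by its brightest probe set, and each gene's adjusted p-value is from limma, corrected over the 13599 genes by the Benjamini-Hochberg method.

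**Figure D1:**
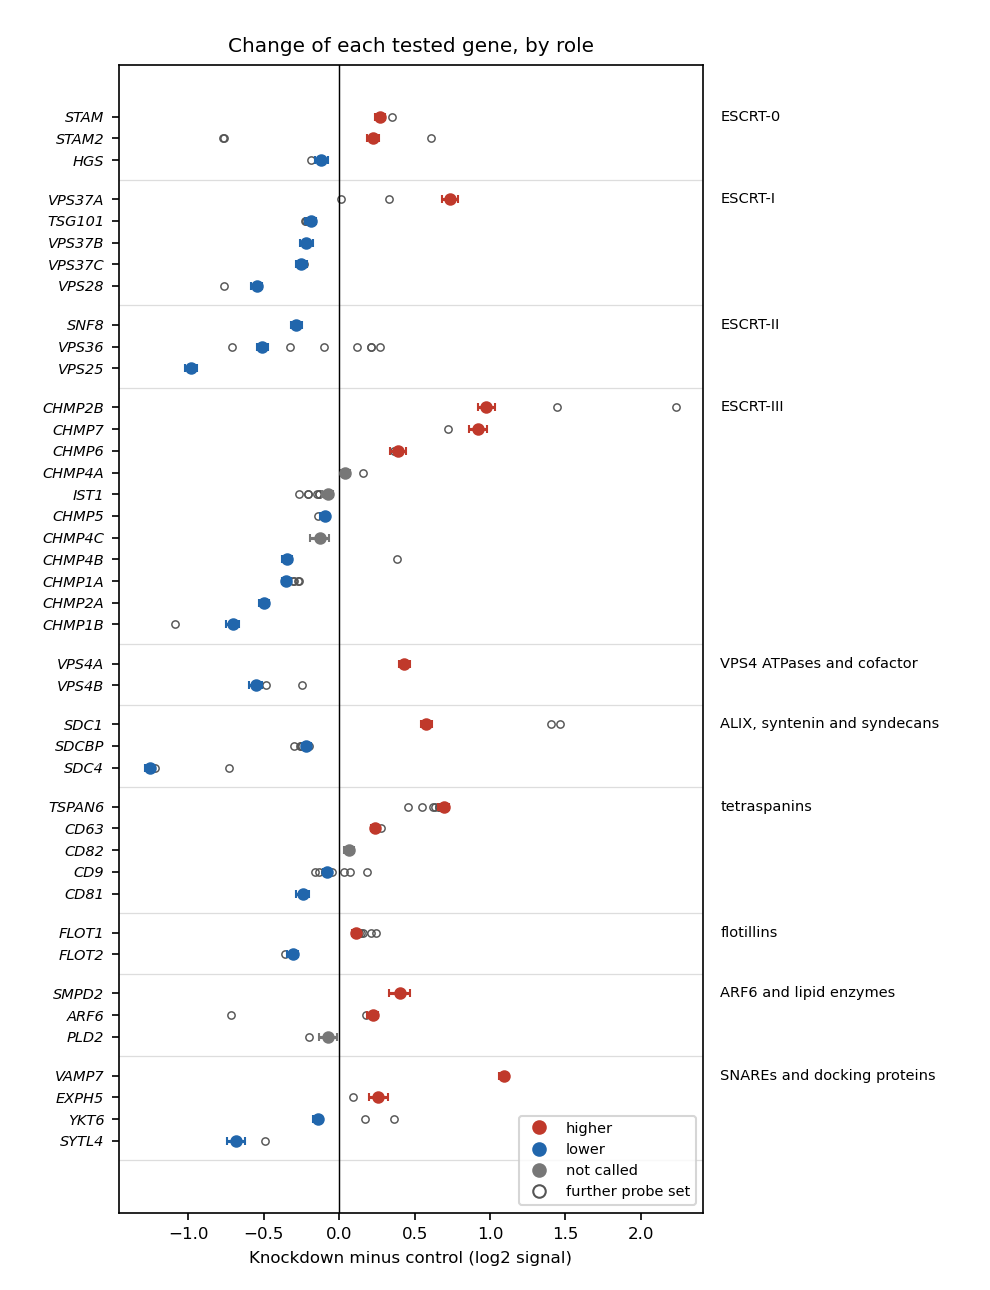
Change of each of the 41 tested genes, knockdown minus control on the log2 scale, grouped by role; filled points are the brightest probe set with its standard error, coloured by call, and open circles are further probe sets of the same gene. ESCRT-II stands wholly on the lower side, at -0.28 to -0.98 on the brightest probe sets, while ESCRT-III runs from -0.71 for CHMP1B to 0.97 for CHMP2B.

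In the early complexes, genes of ESCRT-0 and ESCRT-I were called in both directions. HGS, the ubiquitin-binding scaffold of ESCRT-0, fell by 0.12 on the log2 scale (adjusted p = 0.0216), and its partners STAM and STAM2 rose by 0.27 and 0.22 (adjusted p = 1.45e-06 and 0.000148). Of the 4 probe sets of STAM2, 2 were called lower, each by 0.77, and averaged over all 4 it was lower, at -0.18 (adjusted p = 0.00211). The call of HGS was lost without control replicate 1 (adjusted p = 0.0546) and without knockdown replicate 3 (adjusted p = 0.0854). In ESCRT-I, which links that scaffold to the budding machinery, 4 of 5 subunits fell and 1 rose. TSG101, its core subunit, fell by 0.19 (adjusted p = 0.000322), on 3 of its 3 probe sets. VPS28 had log2 signals of 9.34, 9.29 and 9.28 in the control arrays and 8.78, 8.76 and 8.73 in the knockdown arrays. Its groups were well apart, a 1.46-fold difference (adjusted p = 3.37e-10), and its other probe set gave a 1.70-fold fall.

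The VPS37 subunits, alternative partners within ESCRT-I, went different ways. VPS37A measured 7.24, 7.35 and 7.17 in control and 7.96, 8.01 and 7.99 in knockdown. All knockdown arrays lay above all controls, a 1.66-fold rise (adjusted p = 2.21e-09). Of its further probe sets, 1 was called higher, at 0.33, and 1 differed by 0.01 and was not called (adjusted p = 0.913 over all human probe sets). VPS37B and VPS37C fell by 0.22 and 0.25 (adjusted p = 0.000387 and 7.9e-06), VPS37B on its only probe set.

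All 3 subunits of ESCRT-II, the bridge between ESCRT-I and ESCRT-III, fell on their brightest probe sets. VPS25, the subunit that contacts ESCRT-III, stood at 9.86, 9.84 and 9.80 in control and at 8.92, 8.85 and 8.77 in knockdown. The knockdown arrays were at 50.6% of the control level with no overlap (adjusted p = 9.29e-13; log2 SE 0.039), measured on 1 probe set. The stretch upstream of its start is shown because VPS25 had the largest fall of any ESCRT gene here. It covers the 250 bases before the transcription start at chr17:42773199-42773448 (plus strand) in RefSeq on GRCh38.p14, 5′ to 3′, and holds none of the motifs searched, which are given with the other upstream sequences.
VPS25: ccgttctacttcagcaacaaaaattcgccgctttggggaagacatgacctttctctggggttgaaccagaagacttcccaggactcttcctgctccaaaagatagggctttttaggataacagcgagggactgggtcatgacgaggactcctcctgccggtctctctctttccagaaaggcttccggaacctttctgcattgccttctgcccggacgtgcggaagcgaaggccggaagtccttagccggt

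VPS36, the ubiquitin-binding subunit of ESCRT-II, measured 9.53, 9.49 and 9.46 in control and 9.03, 8.99 and 8.92 in knockdown. The groups were apart on this probe set, a 1.43-fold fall (adjusted p = 1.53e-09), but 3 of its 8 probe sets were called lower, 3 higher and 2 not at all. The third subunit, SNF8, fell from 10.44 ± 0.08 to 10.16 ± 0.02 (mean ± SD, n = 3 each, adjusted p = 1.17e-06), measured on 1 probe set.

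ESCRT-III, which forms the filament that cuts the membrane neck, was divided: of 11 tested subunits, 3 rose, 5 fell and 3 were not called. CHMP2B rose most. Its log2 signals were 8.13, 7.98 and 8.0 in control and 8.92, 9.15 and 8.96 in knockdown. Every knockdown array was above every control, a 1.96-fold rise (adjusted p = 1.04e-10), and its dimmer probe sets gave larger rises. On these, CHMP2B was 2.72-fold and 4.71-fold higher, with the last going from 7.24, 7.15 and 7.07 in control to 9.41, 9.41 and 9.35 in knockdown. CHMP2A, its paralogue, went the other way, with 9.87, 9.81 and 9.82 in control and 9.36, 9.33 and 9.31 in knockdown. That was a 1.41-fold fall without overlap (adjusted p = 2.91e-10), measured on 1 probe set.

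The sequences upstream of both CHMP2 genes are set side by side because the genes are paralogues with opposite changes. They are the 250 bases before the RefSeq start on GRCh38.p14, at chr19:58555106-58555355 (minus strand) for CHMP2A and at chr3:87227059-87227308 (plus strand) for CHMP2B, 5′ to 3′. Capitals mark matches to any of 4 motifs, searched on both strands: the GC box GGGCGG, the CCAAT box CCAAT, the E box CACGTG and the AP-1 site TGANTCA. No motif contains another.
CHMP2A: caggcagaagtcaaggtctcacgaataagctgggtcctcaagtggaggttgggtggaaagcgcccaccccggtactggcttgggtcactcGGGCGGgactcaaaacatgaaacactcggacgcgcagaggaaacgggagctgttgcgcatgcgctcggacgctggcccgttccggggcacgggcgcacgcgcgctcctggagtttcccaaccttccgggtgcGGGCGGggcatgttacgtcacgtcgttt
CHMP2B: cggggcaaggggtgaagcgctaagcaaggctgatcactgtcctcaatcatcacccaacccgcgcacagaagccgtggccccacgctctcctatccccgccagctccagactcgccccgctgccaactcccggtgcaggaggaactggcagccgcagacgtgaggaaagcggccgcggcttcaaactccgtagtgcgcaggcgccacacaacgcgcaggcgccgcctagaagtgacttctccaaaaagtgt
The CHMP2A stretch holds 2 GC boxes and the CHMP2B stretch holds 0 matches to any of the 4 motifs. A GC box is found in 42.6% of all 35116 RefSeq upstream stretches of this length.

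CHMP7, which recruits ESCRT-III to the nuclear envelope, measured 7.02, 6.91 and 6.80 in control and 7.83, 7.85 and 7.82 in knockdown. The knockdown arrays lay close together and above every control, a 1.89-fold rise (adjusted p = 3.51e-10) seen on both of its probe sets. CHMP6, which takes over from ESCRT-II at the endosome and nucleates the filament, rose from 7.28 ± 0.07 to 7.67 ± 0.0029 (mean ± SD, n = 3 each, adjusted p = 3.96e-06). CHMP1B, a late subunit, had 8.68, 8.80 and 8.76 in control and 8.0, 8.10 and 8.02 in knockdown. Its groups did not overlap, a 1.63-fold fall (adjusted p = 3.19e-10), and its other probe set gave a 2.12-fold fall. CHMP1A fell by 0.35 and did so on 5 of its 5 probe sets, between 0.27 and 0.35.

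The CHMP4 proteins make up most of the filament. Of their transcripts, only CHMP4B was called on its brightest probe set, and its probe sets were called in opposite directions. CHMP4B read 9.77 in each control array and 9.43, 9.45 and 9.38 in knockdown. This was a 1.27-fold fall (adjusted p = 3.18e-08), but its dimmer probe set read 7.89, 7.66 and 7.36 in control and 7.90, 8.30 and 7.85 in knockdown. That probe set was called higher, by 0.38 (adjusted p = 0.0158 over all human probe sets), although 1 control array lay above a knockdown array. CHMP4A differed by 0.04 (adjusted p = 0.34) and CHMP4C by -0.13 (adjusted p = 0.0857), and neither was called on its brightest probe set. A further probe set of CHMP4A was called higher, by 0.16 (adjusted p = 0.00151 over all human probe sets). CHMP4C was called lower with quantile normalization (adjusted p = 0.0488) and without knockdown replicate 2 (adjusted p = 0.0258). CHMP5, which binds the VPS4 cofactor VTA1, fell by 0.10 (adjusted p = 0.0057), a call lost without the intensity trend (adjusted p = 0.0526). IST1, an ESCRT-III-like protein that binds VPS4, differed by -0.08 on its brightest probe set (adjusted p = 0.0701) and was called lower on 5 of its 8 probe sets. Without control replicate 3, IST1 was called lower on the brightest as well (adjusted p = 0.0281).

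The VPS4 ATPases, which pull the filament apart, moved in opposite directions. VPS4A rose from 8.53, 8.53 and 8.47 in control to 8.93, 8.97 and 8.92 in knockdown, or 1.35-fold (adjusted p = 2.1e-08), on its only probe set. VPS4B fell from 8.39, 8.41 and 8.36 to 7.82, 7.79 and 7.89, or 1.47-fold (adjusted p = 6.37e-09), and was lower on 3 of its 3 probe sets. Neither gene had overlap between the groups.

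**Figure D2:**
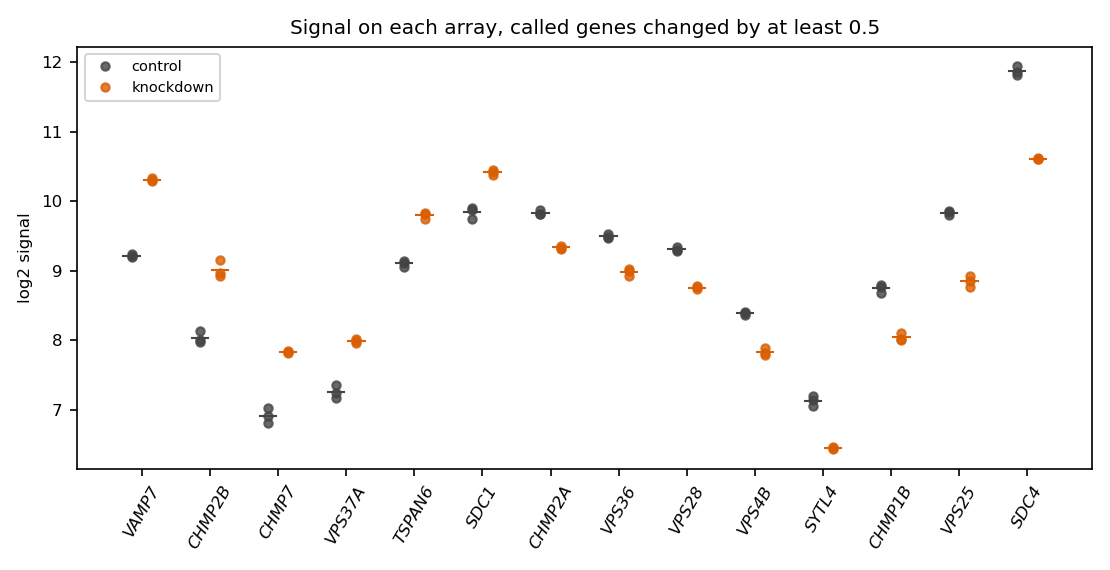
Log2 signal on each of the 3 control and 3 knockdown arrays for the 14 called genes whose change was at least 0.5 on the log2 scale, ordered from the largest rise to the largest fall; points are arrays and short lines are group means. The groups do not overlap for any of the 14 genes, of which 6 rose and 8 fell.

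In the syndecan route, the heparan sulfate proteoglycans SDC1 and SDC4 changed in opposite directions, and syntenin fell slightly. SDC4 had the largest fall among the 41 genes. Its log2 signals were 11.94, 11.86 and 11.81 in control and 10.61, 10.61 and 10.62 in knockdown. Knockdown arrays stood at 41.8% of the control level with no overlap (adjusted p = 1.18e-15; log2 SE 0.029), and the further probe sets fell by 1.22 and 0.73. SDC1 read 9.90, 9.88 and 9.75 in control and 10.45, 10.42 and 10.38 in knockdown. It rose 1.49-fold (adjusted p = 4.04e-10), and by 2.65-fold and 2.76-fold on its dimmer probe sets. SDCBP, or syntenin, the adaptor that ties syndecans to ALIX, fell by 0.22 (adjusted p = 3.44e-06), on 6 of its 6 probe sets.

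The upstream sequences of both syndecan genes are shown for the same reason as those of the CHMP2 genes. They cover chr2:20225476-20225725 (minus strand) for SDC1, before the outermost of its 2 RefSeq starts, and chr20:45348425-45348674 (minus strand) for SDC4, with the motifs and build as above.
SDC1: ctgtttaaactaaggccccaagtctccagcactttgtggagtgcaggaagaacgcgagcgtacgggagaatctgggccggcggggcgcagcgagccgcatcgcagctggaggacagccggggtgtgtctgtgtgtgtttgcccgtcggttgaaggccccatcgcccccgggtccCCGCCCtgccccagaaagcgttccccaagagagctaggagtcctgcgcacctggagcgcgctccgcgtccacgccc
SDC4: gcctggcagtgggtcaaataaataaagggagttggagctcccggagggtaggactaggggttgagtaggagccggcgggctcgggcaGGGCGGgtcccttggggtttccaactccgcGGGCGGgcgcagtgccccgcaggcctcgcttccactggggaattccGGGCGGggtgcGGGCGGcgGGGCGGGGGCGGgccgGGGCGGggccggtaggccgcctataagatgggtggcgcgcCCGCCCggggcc
The SDC4 stretch holds 8 GC boxes and that of SDC1 holds 1, and neither holds another of the motifs. RefSeq stretches were given for 36 of the 45 genes, 54 in all where a gene has several starts. A GC box was in 61.1% of these 54 and a CCAAT box in 18.5%, where the shares over all stretches were 42.6% and 32%. For the E box and the AP-1 site the shares were 13% and 9.26%, where all stretches had 6.34% and 6.57%. Stretches of 1 gene overlap in part, so these shares are descriptions, and a match does not show that a factor binds there.

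The tetraspanins that mark exosomes changed little, apart from TSPAN6. CD63, the tetraspanin of late endosomes, read 11.31, 11.32 and 11.29 in control and 11.57, 11.51 and 11.55 in knockdown, a 1.18-fold rise (adjusted p = 7.13e-08) present on both of its probe sets. CD81 fell from 9.77, 9.69 and 9.57 to 9.49, 9.42 and 9.40, also 1.18-fold (adjusted p = 9.38e-05), on its only probe set. CD9 read 11.45, 11.44 and 11.38 in control and 11.33, 11.31 and 11.39 in knockdown. These groups overlapped, and the fall of 0.08 (adjusted p = 0.0121) was called on 4 of 9 probe sets and was lost without the intensity trend (adjusted p = 0.11) and without knockdown replicate 2 (adjusted p = 0.0691). CD82 differed by 0.06 and was not called (adjusted p = 0.124), but it was called higher without control replicate 1 (adjusted p = 0.0236).

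TSPAN6, a tetraspanin that binds syntenin, had the largest change of the 5 tetraspanins tested here. Its log2 signals were 9.14, 9.11 and 9.06 in control and 9.82, 9.82 and 9.74 in knockdown. All knockdown arrays were above all controls, a 1.62-fold rise (adjusted p = 1.92e-11), and 8 of 8 probe sets were called higher, by 0.46 to 0.70. TSPAN8 was dim, with 3.85, 3.62 and 3.81 in control and 3.26, 3.53 and 3.41 in knockdown. Genes with a mean under 4.63 were filtered out, and TSPAN8 was therefore not tested among genes. In the fit over all human probe sets, which has no such filter, it was called lower, by 0.36 (adjusted p = 0.00572).

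The flotillins, scaffold proteins of lipid rafts, moved apart by small amounts. FLOT1 rose by 0.11 (adjusted p = 0.00136) and FLOT2 fell by 0.31 (adjusted p = 1.41e-06). FLOT1 was called higher on 5 of 6 probe sets and FLOT2 lower on both. In the group of ARF6, a small GTPase that acts with phospholipase D in syntenin exosomes, SMPD2 rose by 0.40 (adjusted p = 5.25e-05) on its only probe set. SMPD2 encodes a neutral sphingomyelinase, an enzyme that releases ceramide. PLD2, the phospholipase, read 6.58 ± 0.01 in control and 6.51 ± 0.02 in knockdown and was not called (mean ± SD, n = 3 each, limma adjusted p = 0.293). ARF6 itself read 10.47, 10.56 and 10.62 in control and 10.77, 10.71 and 10.83 in knockdown on its brightest probe set. This was a 1.17-fold rise without overlap (adjusted p = 3.68e-05), while another probe set read 10.07, 10.03 and 10.01 in control and 9.30, 9.34 and 9.31 in knockdown, a 1.65-fold fall.

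Among proteins of docking and fusion, VAMP7 rose and SYTL4 fell. VAMP7, a SNARE of late endosomes and lysosomes, read 9.21, 9.19 and 9.24 in control and 10.30, 10.33 and 10.29 in knockdown. Every knockdown array lay above every control, and the rise was 2.13-fold (adjusted p = 8.8e-15), measured on 1 probe set. SYTL4, a RAB27 effector in vesicle docking, read 7.14, 7.05 and 7.20 in control and 6.44, 6.46 and 6.43 in knockdown. Its 1.61-fold fall had no overlap (adjusted p = 2.44e-08) and was seen on both probe sets. EXPH5, another RAB27 effector, rose by 0.26 (adjusted p = 0.00139) and did so on 1 of 2 probe sets. YKT6, a SNARE without a membrane-spanning part, read 10.71, 10.66 and 10.59 in control and 10.52, 10.52 and 10.49 in knockdown. It fell by 0.14 on this probe set (adjusted p = 0.000545), while its dimmer probe sets were called higher, by 0.17, with overlap between the groups, and by 0.36, without.

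The stretch upstream of VAMP7, at chrX:155881095-155881344 (plus strand), is shown because this gene had the largest rise among the 41.
VAMP7: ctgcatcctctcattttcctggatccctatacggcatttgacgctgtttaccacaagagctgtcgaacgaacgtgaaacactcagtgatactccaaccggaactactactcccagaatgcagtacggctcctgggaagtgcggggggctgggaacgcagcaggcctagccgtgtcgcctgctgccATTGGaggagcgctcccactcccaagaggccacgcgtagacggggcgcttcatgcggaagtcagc
It holds 1 CCAAT box, read on the opposite strand as ATTGG, and 0 GC boxes.

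The changes of related genes are set side by side for 3 pairs in which both genes were called, in opposite directions. They were -0.50 for CHMP2A and 0.97 for CHMP2B, 0.43 for VPS4A and -0.55 for VPS4B, and 0.58 for SDC1 and -1.26 for SDC4. Other related genes were called the same way: CHMP1A and CHMP1B fell by 0.35 and 0.71, and VPS37B and VPS37C by 0.22 and 0.25, while VPS37A rose by 0.73. These pairs are descriptions chosen with their values known, no share of pairs is read from them, and no test was made of the difference within a pair.

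How far a call held over the probe sets of a gene differed widely. Of the 36 called genes, 8 had 1 probe set and 28 had more. All probe sets were called the same way for 18 of the 28, among them SDC4, SDC1, CHMP2B, CHMP7, TSPAN6, CHMP1B and SYTL4. For 5 of the 28, or 17.9%, a further probe set was called the opposite way, namely ARF6, CHMP4B, STAM2, VPS36 and YKT6, where 11.2% of all called genes with further probe sets were of this kind. The remaining 5 had further probe sets that were not called. STAM2 read 8.12, 8.16 and 8.12 in control and 8.39, 8.34 and 8.33 in knockdown on its brightest probe set. Of its 4 probe sets, 2 were called higher and 2 lower, and 1 of the latter read 7.07, 7.0 and 7.01 in control and 6.27, 6.32 and 6.18 in knockdown. The brightest rose 1.17-fold and this one fell 1.70-fold, each without overlap. For VPS36, besides the brightest, 1 probe set fell from 8.34 ± 0.05 to 7.63 ± 0.03 and 1 rose from 8.21 ± 0.02 to 8.42 ± 0.04 (mean ± SD, n = 3 each).

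**Figure D3:**
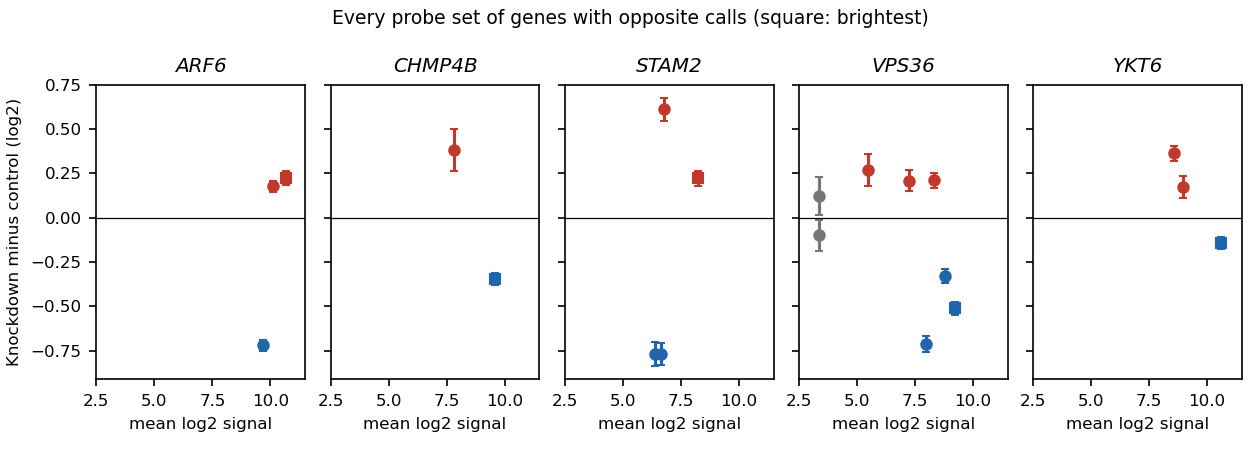
Change (knockdown minus control, log2) against mean log2 signal for every probe set of the 5 called genes with a probe set called the opposite way; squares are the brightest probe set, bars are standard errors, and red, blue and grey mark higher, lower and not called. In ARF6 the changes run from -0.72 to 0.22.

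As a measure of RNA quality, the 3′ minus 5′ difference of the array's control probe sets was 0.49 to 0.64 in control and 0.49 to 0.52 in knockdown for ACTB, and 0.05 to 0.07 and 0.06 to 0.08 for GAPDH, so these ranges overlapped. Between the groups, the array's 85 probe sets for non-human controls showed differences of -0.22 to 0.20. The changes of 8 of the 36 called genes were no larger in size than the largest of these, namely those of HGS, TSG101, VPS37B, CHMP5, SDCBP, CD9, FLOT1 and YKT6. This is 22.2% of the called genes described here, close to the 23.7% of all called genes.

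Other genes of the same routes were taken from 5 lists that share no gene with the 45. In the order given below, 84.4%, 62.5%, 65.2%, 69.2% and 90% of the tested genes of each list were called. Of all genes tested 66.5% were called, 32.4% higher and 34.1% lower, and 79.6% of those above the median level. Among 32 ESCRT-associated and ubiquitin-sorting factors, 12 rose and 15 fell, with a median change of -0.06. The largest changes were rises of EPN1, an endocytic adaptor that binds ubiquitin, by 1.14, and of 3 HECT ubiquitin ligases, NEDD4 by 1.05, NEDD4L by 0.97 and ITCH by 0.76. Among 24 other tetraspanins tested, 7 rose and 8 fell, with a median of -0.07. TSPAN14, a partner of the protease ADAM10, fell from 11.21 ± 0.01 to 9.84 ± 0.04 (mean ± SD, n = 3 each, limma adjusted p = 1.99e-16), TSPAN13 and TSPAN2 fell by 0.70 and 0.55, and TSPAN1 rose by 0.72.

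Among 23 tested genes of docking and fusion of secretory endosomes, 6 rose and 9 fell, with a median of -0.03. RAB5A, the small GTPase of early endosomes, rose by 1.53 and the plasma membrane SNARE STX4 by 1.08, while its relative STX3 fell by 1.16 and RAB11A, the GTPase of recycling endosomes, by 1.07. Of 13 tested genes of syndecans, heparan sulfate, ceramide and phosphatidic acid, 3 rose and 6 fell. SGMS2 and SGMS1, which use ceramide to make sphingomyelin, rose by 1.23 and 0.84, the heparan sulfate cleaving enzyme HPSE rose by 0.68 and SDC3 fell by 0.67. A further probe set of SDC3, at -0.002, was not called. Of 10 partners of tetraspanins, 3 rose and 6 fell, with a median of -0.28. ITGA6, a laminin-binding integrin chain, fell by 1.16, IGSF3 by 0.62 and ITGB4 by 0.36, and ITGA3 rose by 0.63.

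**Figure D4:**
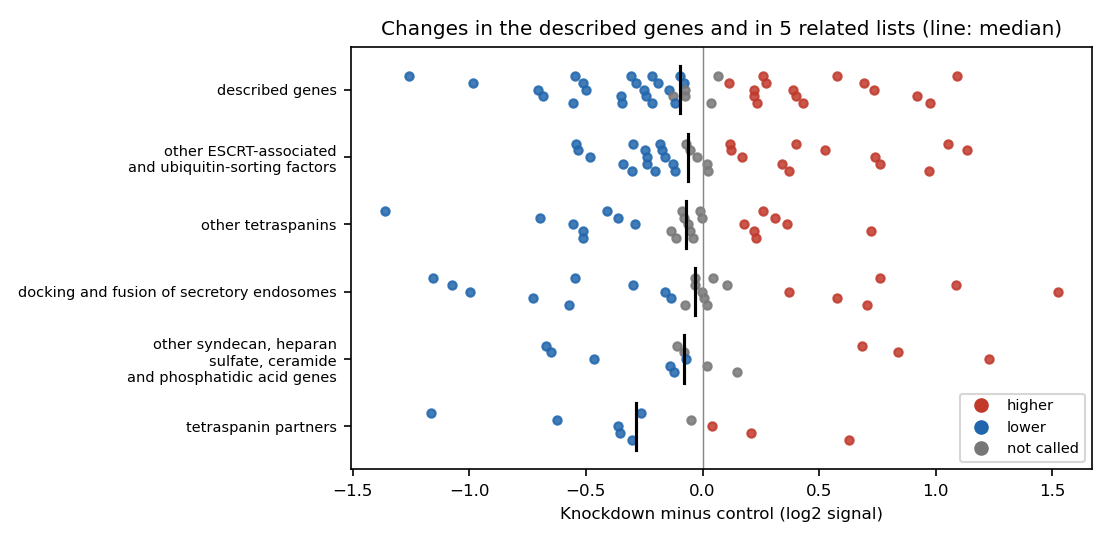
Change of every tested gene (knockdown minus control, log2) in the 41 described genes and in the 5 related lists; points are genes, coloured red for higher, blue for lower and grey for not called, and black lines are medians. Both directions appear in each row, and the medians lie between -0.28 for tetraspanin partners and -0.03 for docking and fusion.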

How the data were processed

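The authors deposited log2 signals of 49395 probe sets for each array. Their software was MAS5, per the submitters' processing notes. How background was corrected, how probes were summarised and when logs were taken is not given in the sources used here. Whether the values are MAS5's own output was not established, and summary methods differ in how far they compress the changes of dim probe sets. That the scale is log2 follows only from the range of the values, 1.95 to 14.1. Array medians of 6.09 to 6.11 showed the arrays to be scaled to each other already, so a change shared by all genes cannot be seen, and no further normalization was applied. The number of arrays limits the precision, and detection calls were not used here.

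Names of probe sets are those of the platform annotation, and 44961 of 44988 with 1 symbol matched RefSeq (GRCh38.p14) by Entrez ID. Of a gene's probe sets, the brightest on average over the 6 arrays stood for the gene, which gave 18132 genes. A filter removed the dimmest 25% of them and kept 13599. The comparison of knockdown with control used limma 3.58.1 under R 4.3.3 (lmFit, then eBayes with its trend on mean signal, with no covariate), with Benjamini-Hochberg adjustment and a threshold of 0.05. Further probe sets and EIF3C were read from the same fit over all 49293 human probe sets.

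The genes and lists were chosen with earlier results of these data known. Every listed gene is named. Values on each array are given for called genes that changed by at least 0.5 and for those with an opposite probe set, and for some others. In each related list up to 4 called genes with the largest change are named. Alternatives were other filters, normalizations, probe set rules and variance models, the replicate number as a block, limma's treat, and each array left out in turn.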

Additional observations from a re-analysis of the deposited data

How the results depend on the processing

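Among the 36 called genes, 16 kept their direction and their call in every alternative that could be run on them. Of 686 gene values over 17 alternatives, 640 kept direction and call, 28 lost the call, 11 gained one and 7 changed sign. The sign changes came from the choice of probe set except for CHMP4A, which was not called in either case and stood at -0.014 with quantile normalization. Averaged over all its probe sets, STAM2 stood at -0.18, CHMP4B at 0.017, ARF6 at -0.11 and YKT6 at 0.13. With the second brightest probe set, CHMP4B stood at 0.38 and YKT6 at 0.17, and the median change of the genes was 0.0094, over the 31 genes that then remained. That setting tests 8800 genes, of which 2861 were called higher and 2670 lower. Of the 31 described genes, 13 were higher and 13 lower. For ESCRT-associated factors 10 were higher and 9 lower of 24, and for other tetraspanins 3 were higher and 5 lower of 13. For syndecan, ceramide and phosphatidic acid genes 4 were higher and 3 lower of 10. Genes of docking and fusion had 6 higher and 8 lower of 19, and tetraspanin partners 3 higher and 4 lower of 8.

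Tested against a 1.2-fold change with limma's treat, 8 of the described genes were higher and 10 lower, against 2194 higher and 2024 lower among all genes. Counts were then 7 higher and 3 lower for ESCRT-associated factors, and 1 higher and 6 lower for other tetraspanins. They were 3 higher and 3 lower for syndecan, ceramide and phosphatidic acid genes. Tetraspanin partners had 1 higher and 4 lower, and genes of docking and fusion 6 higher and 6 lower. With each array left out in turn, 15 to 16 of the described genes were higher and 20 to 22 lower. Among all genes, 4143 to 4349 were then higher and 4286 to 4572 lower. With quantile normalization, which shifted the median of all genes by -0.03, 15 of the described genes were higher and 23 lower. Among all genes, 4184 were higher and 4838 lower in that setting. With the replicate number as a block, 15 of the described genes were higher and 21 lower, and 4491 and 4816 among all genes. The block changed no call of the described genes. Deviations of same-numbered arrays correlated at 0.08, 0.13 and 0.23. Among arrays of the other group, control replicate 1 correlated best with knockdown replicate 2, and every other array with its own number. These values do not settle whether the numbers pair the samples, and the main fit used no pairing.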
